A study of Mus musculus with 9 samples.

Results

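Cdh1, Cdh3, Cdh11, Vim, Twist1, Twist2, Zeb1 and Zeb2 are the 8 genes described here, a set of cadherins and of genes tied to the mesenchymal cell state. They were taken by gene symbol, each symbol matched 1 row, and all 8 were present among the 13336 genes of the table. They were chosen by their log2(TPM + 1) difference between the groups in these same libraries, which was already known, so that difference is given as a description with no p-value, and counts of calls among the 8 carry no weight of their own.

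Cells labelled Lef1KI (5 libraries) came from ACTA2-CreERT2:Lef-1KI+/+ mice and were sorted as GFP-. Cells labelled WT (4 libraries) came from ACTA2-CreERT2:ROSA-TG mice and were sorted as GFP+. Both lines thus carry a tamoxifen-inducible Cre under ACTA2, the smooth muscle actin gene that myoepithelial cells use, both received tamoxifen on 5 days, and Lef-1KI is a knock-in allele for Lef1, a transcription factor of the Wnt pathway. Each library is a culture of tracheal gland cells pooled from 3 to 5 mice, expanded to passage 1 with DMH-1, A83-01 and CHIR 99021 at 1 µM each and Y-27632 at 10 µM. DMH-1 and A83-01 block BMP and TGF-beta receptors, and CHIR 99021 activates Wnt signalling by inhibiting GSK3. The sort gate and the genotype change together and cannot be told apart, and the sources used here give no age for the mice. The labels call all cells myoepithelial. Levels are in TPM, a measure per transcript length that allows genes to be compared within a library.

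Cadherins are calcium-dependent adhesion proteins of adherens junctions. E-cadherin (Cdh1) and P-cadherin (Cdh3) are those of epithelia, and cadherin-11 (Cdh11) is typical of mesenchymal cells. In an epithelial-mesenchymal transition, transcription factors of the ZEB, TWIST and SNAIL families are known to repress Cdh1, while vimentin, the intermediate filament protein of mesenchymal cells, is gained. Basal and myoepithelial cells of glands are known to hold cadherins and vimentin side by side.

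The Lef1KI and WT labels held at the level of Lef1 RNA. Lef1 lay between 139 and 312 TPM in Lef1KI libraries and between 0.38 and 0.55 TPM in WT libraries. Krt5 and Krt14, keratins of basal and myoepithelial cells, averaged 8586 and 7217 TPM in Lef1KI libraries and 7008 and 6258 TPM in WT libraries. Trp63, the transcription factor of basal cells, averaged 108 ± 14.9 TPM in Lef1KI libraries and 117 ± 7.51 TPM in WT libraries (SD). Acta2 averaged 62.3 ± 31.2 TPM in Lef1KI libraries and 129 ± 41.0 TPM in WT libraries (SD, n = 5 and 4). Of the 8 basal and myoepithelial markers listed, 7 were measured and 0 were called in either direction, with 2 at an unadjusted p under 0.05. Cnn1 was not among the genes of the table. As basal cells share these keratins and Trp63, their levels do not show that the cells are myoepithelial.

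Because the sequence of Cdh11 bears on how its value can be read, it is shown first. Of the 5598 words of 50 bases in the longest coding transcript of Cdh11, 181 (3.23%) occurred unchanged in transcripts of 8 other gene models, all of them between transcript bases 896 and 1990. For each of the 7 other members no such word was shared. The exon below is exon 5 of Cdh11 (chr8:102670053-102670172, minus strand, GRCm38, GENCODE M21), a coding exon, followed by the matching stretch in transcripts of 3 of those gene models, with capitals where a copy's base differs from that of Cdh11.
Cdh11: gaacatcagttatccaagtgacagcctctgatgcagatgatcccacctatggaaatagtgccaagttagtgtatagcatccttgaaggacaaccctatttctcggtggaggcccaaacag
Gm6483: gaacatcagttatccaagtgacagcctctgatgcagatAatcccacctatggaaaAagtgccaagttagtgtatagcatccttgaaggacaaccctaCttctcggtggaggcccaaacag
2610005L07Rik: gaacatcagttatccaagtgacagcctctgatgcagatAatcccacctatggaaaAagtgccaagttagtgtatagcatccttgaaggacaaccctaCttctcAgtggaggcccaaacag
Gm21092: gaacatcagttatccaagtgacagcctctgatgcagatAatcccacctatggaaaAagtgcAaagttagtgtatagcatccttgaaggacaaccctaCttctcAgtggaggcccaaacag
The copies differ from the 120 bases of Cdh11 at 3 (Gm6483), 4 (2610005L07Rik) and 5 positions (Gm21092), so a short read from this exon has few bases that tell them apart. All 3 lie elsewhere on chromosome 8, 2610005L07Rik from 20385782 to 20424814 on the minus strand, Gm21092 from 20567597 to 20582771 and Gm6483 from 19682449 to 19697736, both on the plus strand.

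Upstream sequence is shown for the TWIST pair, since both genes were higher in Lef1KI libraries, and for Zeb2. RefSeq windows on GRCm38.p6 matched 4 of the 8 members (Twist1, Twist2, Vim and Zeb2) with 7 transcription starts in all, and the 250 bases before each start were searched on both strands. Each line below runs 5′ to 3′ up to the base before the start, with CCAAT or its complement ATTGG, and TATAA or its complement TTATA, in capitals.
Twist1: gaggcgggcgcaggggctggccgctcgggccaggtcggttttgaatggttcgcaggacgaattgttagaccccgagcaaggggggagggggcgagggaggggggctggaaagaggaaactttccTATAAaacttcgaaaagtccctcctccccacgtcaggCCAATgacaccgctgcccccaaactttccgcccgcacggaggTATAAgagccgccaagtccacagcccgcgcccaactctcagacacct
Twist2: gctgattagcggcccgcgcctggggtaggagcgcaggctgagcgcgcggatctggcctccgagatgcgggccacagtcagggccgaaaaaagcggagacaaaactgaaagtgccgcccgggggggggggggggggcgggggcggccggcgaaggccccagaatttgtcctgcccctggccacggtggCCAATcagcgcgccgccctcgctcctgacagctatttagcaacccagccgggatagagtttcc
Zeb2: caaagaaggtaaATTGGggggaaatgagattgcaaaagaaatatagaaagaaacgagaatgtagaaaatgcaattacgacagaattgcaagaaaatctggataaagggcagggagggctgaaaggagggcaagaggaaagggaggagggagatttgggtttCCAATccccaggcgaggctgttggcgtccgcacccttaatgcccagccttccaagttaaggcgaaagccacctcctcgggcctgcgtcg
These are chr12:33957421-33957670 (plus strand), chr1:91801211-91801460 (plus strand) and, for the outermost of the 4 starts of Zeb2, chr2:45117443-45117692 (minus strand). Twist1 held CCAAT 89 bases and TATAA 47 and 126 bases before its start, while Twist2 held CCAAT 63 bases before its start and no TATAA. Over 32851 windows of the same length, CCAAT or ATTGG occurred in 33.8% and TATAA or TTATA in 22.8%. The letters CACCTG or CAGGTG, the E-box that ZEB, SNAIL and TWIST proteins are known to bind, were in none of the 7 windows of these members and in 17.2% of all windows. The shorter CACCT or AGGTG stood in the windows of Twist1, 5 bases before the start, and of 3 of the 4 Zeb2 starts, against 46.0% of all windows.

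The epithelial cadherins and the mesenchymal genes did not part in opposite directions between the groups. All 8 genes were higher in Lef1KI libraries, and for each of them the lowest Lef1KI library lay above the highest WT library. All 8 were called higher at a limma adjusted p under 0.05, where 7.97% of all genes were called in either direction, 6.73% were called higher in Lef1KI and 10.0% lay wholly above WT. With median centring or trimmed-mean scaling 6 were called, without Cdh1 and Cdh3. As the set was chosen with this contrast known, nothing is read from these counts. The mesenchymal genes differed by 1.19 to 1.98 on the log2(TPM + 1) scale and the 2 epithelial cadherins by 0.43 and 0.48, where the median difference of all genes was 0.141. Bulk RNA cannot tell a change in the number of cells that hold a transcript from a change in the transcript per cell.

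**Figure D1:**
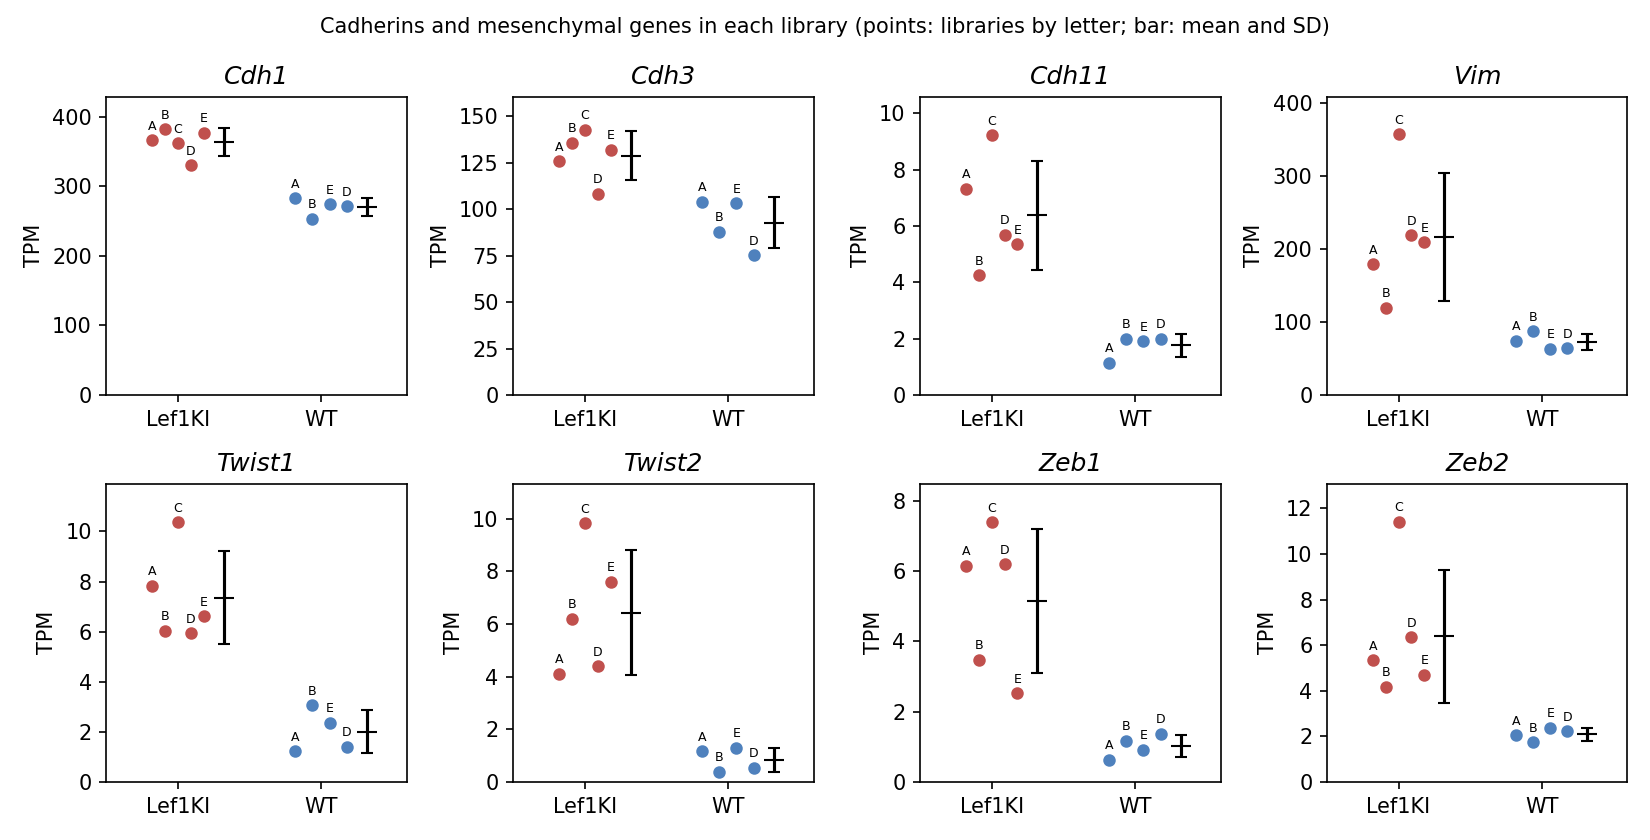
TPM of each of the 8 genes (one panel each, linear axis from 0) in 5 Lef1KI and 4 WT libraries, with points labelled by library letter and a bar for the mean and SD. In every panel the Lef1KI points lie above the WT points, by a small margin for Cdh3 (108 against 104 TPM) and a wide one for Twist2 (4.11 against 1.30 TPM).

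Cdh1, the E-cadherin gene (ENSMUSG00000000303, chr8:106603351-106670246, plus strand), was the most abundant of the set. Its level was 366, 382, 361, 330.5 and 377 TPM in Lef1KI A to E, against 283, 253, 271 and 274 TPM in WT A, B, D and E. The groups were close together without overlapping, at 363 ± 20.02 TPM in Lef1KI and 270.2 ± 12.5 TPM in WT (SD), a 1.34-fold ratio of means. The log2 difference was 0.43 (SE 0.09). It was 0.39 without WT B, and rescaling the libraries left 0.27 (median centring) or 0.25 (trimmed mean).

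Cdh3, the P-cadherin gene of basal epithelial layers (ENSMUSG00000061048, chr8:106510891-106557297, plus strand), ends 46054 bases before Cdh1 begins on the same strand. It had 126, 136, 143, 108 and 132 TPM in Lef1KI A to E, and 104, 88.0, 75.3 and 103 TPM in WT A, B, D and E. The lowest Lef1KI library, D, was only just above the highest WT library, A. The log2 difference was 0.48 (SE 0.13), between 0.38 (without WT D) and 0.54 (without Lef1KI D) in 9 refits with a library removed, and 0.32 and 0.31 under the 2 rescalings. For both epithelial cadherins the difference thus shrank once the shift of all genes was taken out, and it stayed above 0 in each setting named here. Neither gene passed the limma threshold after either rescaling. Cdh1 passed in 8 of 9 refits, failing without WT B, and Cdh3 in 3 of 9. As both genes were chosen by this same contrast, these calls carry no weight as tests.

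Vim, which encodes vimentin (ENSMUSG00000026728, chr2:13573927-13582826, plus strand), was the only mesenchymal member expressed at the level of the cadherins. It had 179.6, 119, 357, 219 and 209 TPM in Lef1KI A to E, and 74.3, 87.3, 63.85 and 63.4 TPM in WT A, B, D and E. Lef1KI C stood well above the other 4 Lef1KI libraries, and Lef1KI B came nearest to WT. The means were 217 ± 87.6 TPM in Lef1KI and 72.2 ± 11.2 TPM in WT (SD), a 3.003-fold ratio, with a log2 difference of 1.496 (SE 0.26) that was 1.29 without Lef1KI C. Vim exceeded Cdh3 in 4 of 5 Lef1KI libraries, all but B, and in 0 of 4 WT libraries, and it stayed below Cdh1 in all 9.

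Cdh11 (ENSMUSG00000031673, chr8:102632095-102785642, minus strand) was low in both groups. It had 7.32, 4.26, 9.23, 5.69 and 5.36 TPM in Lef1KI A to E, and 1.14, 2.0, 2.0 and 1.90 TPM in WT A, B, D and E. The log2 difference was 1.39 (SE 0.21) and the ratio of means 3.62. This value is uncertain in view of the shared sequence shown above. In every library 6 of the 8 gene models that share words with Cdh11 were listed above it, Gm21811 by a small margin in Lef1KI A and C. The means of these 6 were lower in Lef1KI, with overlapping groups for Gm6483. Their summed level was 209, 169, 172, 134 and 171 TPM in Lef1KI A to E, and 237, 415, 379 and 396 TPM in WT A, B, D and E. Of the 6, 5 fell, with limma adjusted p between 0.00181 (Gm10557, log2 difference −1.50, SE 0.21) and 0.0235 (6820431F20Rik, −0.87, SE 0.20), while Gm6483 did not pass (−0.66, SE 0.22, limma adjusted p 0.102). The share of all genes called lower was 1.24%. With a library removed, 6820431F20Rik and Gm21811 passed in 4 of 9 refits, Gm21092 in 7, and 2610005L07Rik and Gm10557 in all 9. Added to its copies, Cdh11 came to 177 ± 27.1 TPM in Lef1KI and 359 ± 81.6 TPM in WT (SD), a log2 difference of −0.99. The copies make up nearly all of this sum, so it takes their direction and does not tell that of Cdh11. How reads were divided among these models was not tested.

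**Figure D2:**
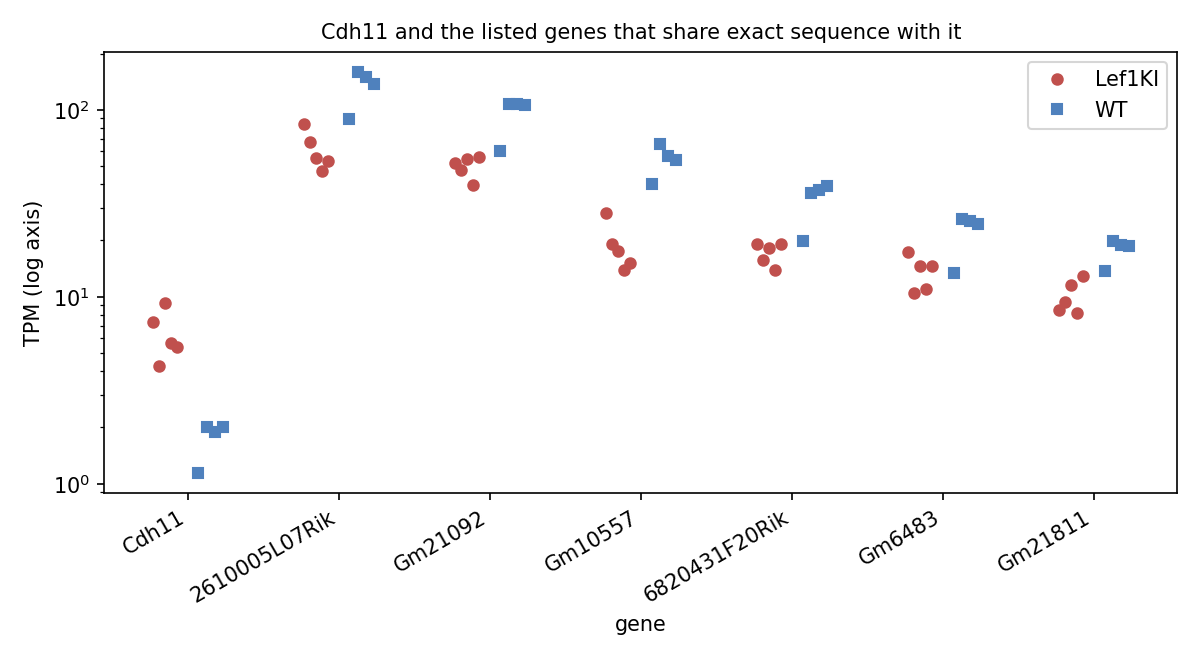
TPM on a log axis of Cdh11 and of the 6 listed gene models that share 50-base words with it, in Lef1KI libraries (circles) and WT libraries (squares). Cdh11 lies below 10 TPM and is higher in Lef1KI, while the 6 copies lie above 8 TPM and have lower means in Lef1KI.

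The 4 transcription factors were all below 12 TPM in each library. Twist1 (ENSMUSG00000035799, chr12:33957671-33959829, plus strand), a basic helix-loop-helix factor of the mesoderm, had 7.83, 6.03, 10.4, 5.93 and 6.62 TPM in Lef1KI A to E, and 1.22, 3.06, 1.40 and 2.36 TPM in WT A, B, D and E. The log2 difference was 1.49 (SE 0.22). Twist2 (ENSMUSG00000007805, chr1:91801461-91848028, plus strand), its close relative and a known regulator of dermal fibroblasts, had 4.11, 6.20, 9.83, 4.39 and 7.60 TPM in Lef1KI, and 1.17, 0.38, 0.54 and 1.30 TPM in WT, in the same order of libraries. With a log2 difference of 1.98 (SE 0.25) and a 7.58-fold ratio of means, Twist2 had the widest gap of the set. Genes were kept in the table at a mean of at least 3 SD in a group. Twist2 met this limit only in Lef1KI, the group where it is high. Twist1 was above Twist2 in 3 of the 5 Lef1KI libraries and in all 4 WT libraries, with Twist2 the higher of the pair in Lef1KI B and E.

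Zeb1 and Zeb2 encode zinc finger and homeodomain proteins that bind E-box sequence and are known repressors of Cdh1. Zeb1 (ENSMUSG00000024238, chromosome 18 from 5591860 to 5775467, plus strand) had 6.16, 3.48, 7.39, 6.21 and 2.53 TPM in Lef1KI A to E, and 0.63, 1.17, 1.37 and 0.92 TPM in WT A, B, D and E. Lef1KI libraries fell into a higher trio (A, C and D) and a lower pair (B and E), and the log2 difference was 1.55 (SE 0.26). Zeb2 (ENSMUSG00000026872, chr2:44983632-45117395, minus strand) had 5.33, 4.17, 11.4, 6.36 and 4.70 TPM in Lef1KI, and 2.04, 1.73, 2.23 and 2.38 TPM in WT, in the same order. Its log2 difference of 1.19 (SE 0.24) became 0.98 without Lef1KI C, the library that held its highest value. Zeb2 exceeded Zeb1 in 4 of 5 Lef1KI libraries and in all 4 WT libraries. The antisense genes Zeb2os and Gm29100 overlap Zeb2 and Twist2, and the sources used here do not say whether reads were counted by strand, so reads of each pair may not be told apart.

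By mean level the order in Lef1KI libraries was Cdh1, Vim, Cdh3, Twist1, Twist2, Zeb2, Cdh11 and Zeb1. In WT libraries it was Cdh1, Cdh3, Vim, Zeb2, Twist1, Cdh11, Zeb1 and Twist2. Neighbours in each order overlapped between libraries, other than Cdh3 and Twist1 in Lef1KI, and Cdh1 and Cdh3, and Vim and Zeb2, in WT. The 5 low genes had means of 5.15 to 7.36 TPM in Lef1KI and 0.848 to 2.10 TPM in WT. Cdh1 ranked 355th of all genes in Lef1KI and 441st in WT, Vim 576th and 1646th, and Twist2 9080th and 11924th.

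Set against Cdh1 within the same library, which no rescaling of a library can move, the mesenchymal genes as listed gained on E-cadherin, with overlap for Vim. Vim reached 49.0, 31.3, 98.8, 66.2 and 55.5% of the TPM of Cdh1 in Lef1KI A to E, and 26.2, 34.5, 23.6 and 23.2% in WT A, B, D and E. The groups overlapped, because Lef1KI B was below WT B. In Lef1KI C vimentin and E-cadherin transcripts were almost equal. The log2 ratio of Vim to Cdh1 averaged −0.83 ± 0.61 in Lef1KI and −1.92 ± 0.27 in WT (SD, n = 5 and 4), a 2.12-fold gain. Over Cdh1 the gain was 6.06-fold for Twist2, 3.62-fold for Zeb1, 2.85-fold for Twist1, 2.67-fold for Cdh11 and 2.14-fold for Zeb2, without overlap between the groups for these 5. As these genes were chosen for their difference between the groups, nothing is read from that count. The share of all genes without overlap in this ratio was not computed. The ratio of Cdh3 to Cdh1 differed little, at −1.50 ± 0.10 in Lef1KI and −1.56 ± 0.20 in WT on the log2 scale (SD), with overlapping groups. The gain of Cdh11 holds for its own listed value, and how reads were divided between Cdh11 and its copies was not tested.

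**Figure D3:**
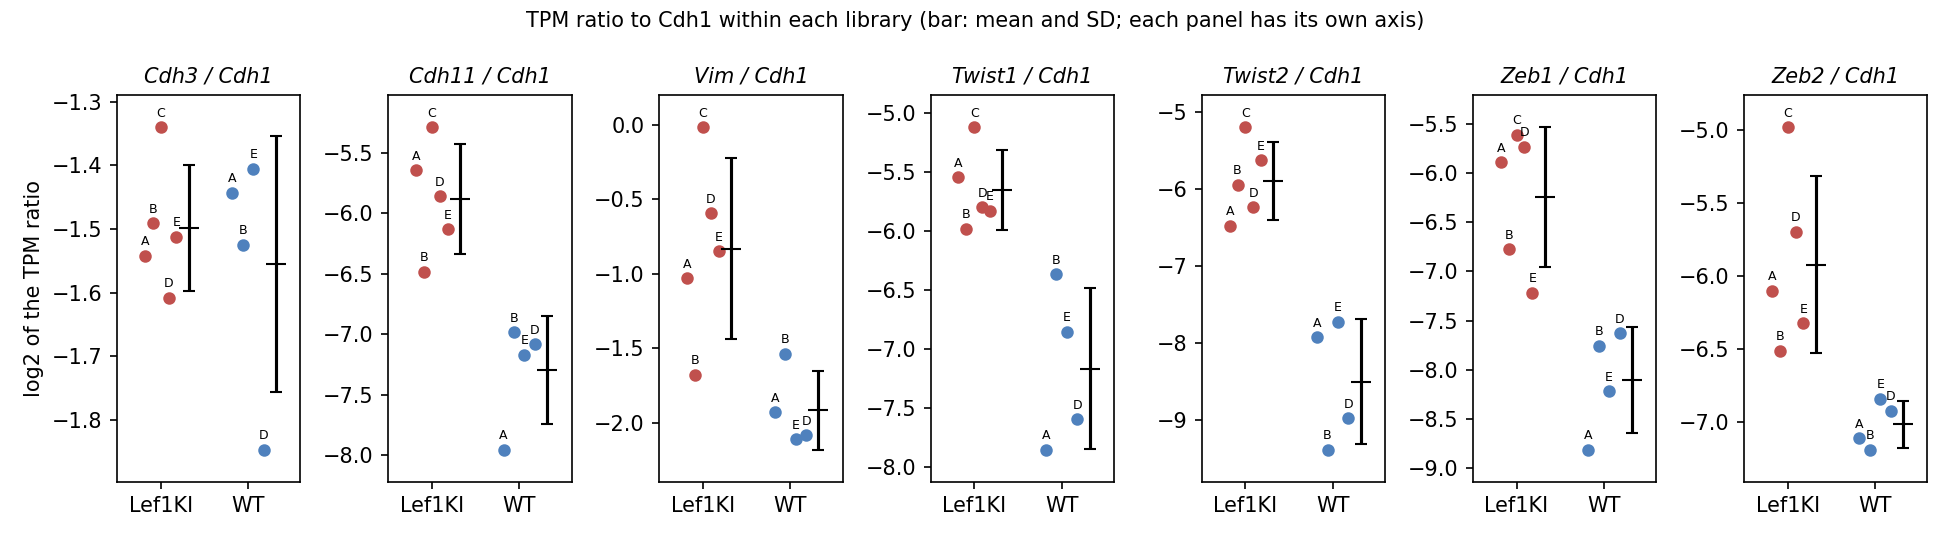
log2 of the TPM ratio of each other member to Cdh1 within each library (one panel each, with its own axis), for 5 Lef1KI and 4 WT libraries labelled by letter, with a bar for the mean and SD. The groups overlap for Cdh3 and for Vim, where Lef1KI B at −1.68 lies below WT B at −1.54, and are apart in the other 5 panels.

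Within the groups, where the contrast that chose the genes plays no part, libraries were compared in pairs (10 pairs of Lef1KI and 6 of WT), and the pairs share libraries. Lef1KI C held the highest value of all 6 mesenchymal members among the Lef1KI libraries and also the highest Cdh3, but only the fourth highest Cdh1. Lef1KI B held the highest Cdh1 and the lowest Vim, Cdh11 and Zeb2. Cdh1 and Vim stood in opposite order in 12 of the 16 library pairs, Cdh1 and Zeb1 in 13, Cdh1 and Cdh11 in 13 with 1 tie, Cdh1 and Twist1 in 11, Cdh1 and Zeb2 in 11, and Cdh1 and Twist2 in 6. Taken over the 6 mesenchymal members, order was opposite to that of Cdh1 in 66 of 96 comparisons (68.8%) and to that of Cdh3 in 49 of 96 (51.0%), and mesenchymal members were opposite to each other in 86 of 240 (35.8%). Ties count in neither direction, and the comparisons are not independent, since all genes were read in the same libraries. How often single genes of the table outside the set, Lef1 aside, stood opposite to Cdh1 was not counted. By group, order was opposite to that of Cdh1 in 44 of 60 comparisons among Lef1KI libraries and 22 of 36 among WT libraries, and to that of Cdh3 in 26 of 60 among Lef1KI and 23 of 36 among WT libraries. For Cdh1 and Zeb2 it was opposite in 9 of 10 Lef1KI pairs and 2 of 6 WT pairs. Sums of cell type markers, described below, also often stood opposite to Cdh1. The fibroblast sum did so in 12 of the 16 pairs, with or without the marker Mgp, and the endothelial sum in 11. To Cdh3 the fibroblast sum was opposite in 10 of 16, with or without Mgp, and the endothelial sum in 7.

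These are small movements of Cdh1. Its libraries deviated from their group mean by −0.13 to 0.07 on the log2(TPM + 1) scale in Lef1KI and by −0.09 to 0.07 in WT, while Vim deviated by −0.77 to 0.81 in Lef1KI and by −0.17 to 0.28 in WT. With 5 and 4 libraries no correlation is given and no test was made. The order of Lef1 itself was matched by Vim in 7 of the 16 pairs, by Zeb1 and Zeb2 in 6 each, Cdh11 in 6 with 1 tie, Twist2 in 9 and Twist1 in 10, and by Cdh3 in 13 and Cdh1 in 11. In the 6 WT pairs that order rests on Lef1 values of 0.38 to 0.55 TPM. Among the 10 Lef1KI pairs alone it was matched by Vim in 3, Zeb1 in 5, Zeb2 in 4 and Cdh11 in 5. Twist2 matched it there in 6, Twist1 in 7, Cdh3 in 8 and Cdh1 in 7.

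**Figure D4:**
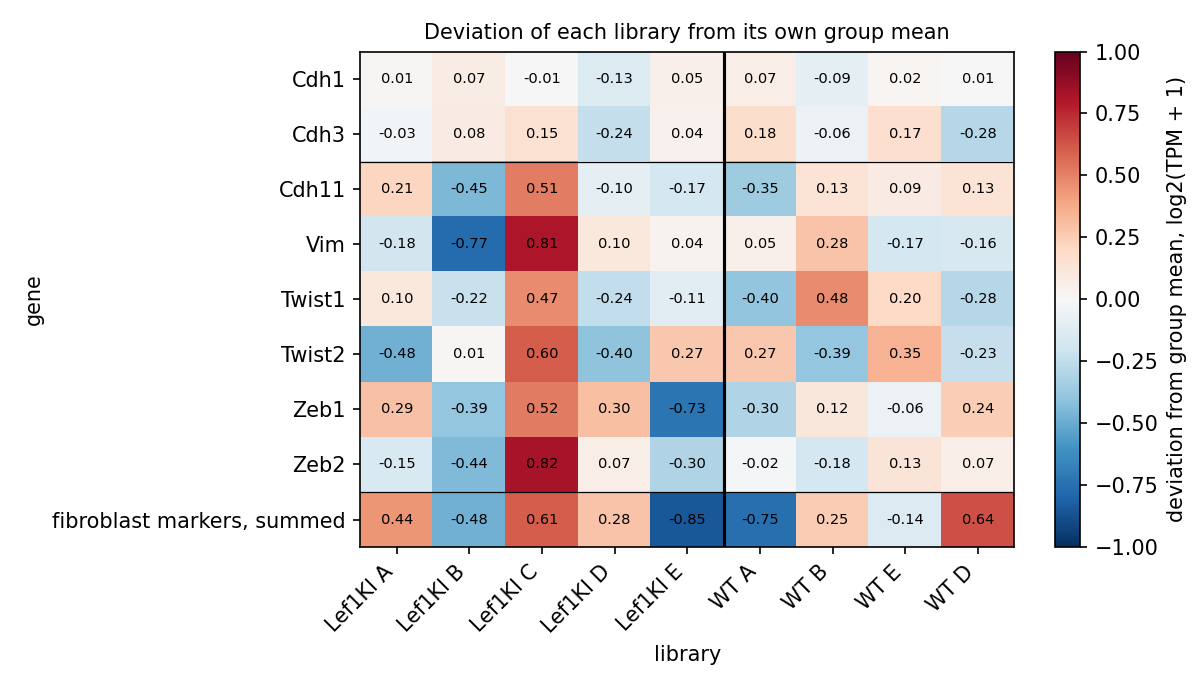
Deviation of each library from the mean of its own group on the log2(TPM + 1) scale, for the 8 genes (rows) and the summed TPM of the fibroblast markers (last row), with 5 Lef1KI libraries left of the line and 4 WT libraries right of it. Lef1KI C is above its group mean in all 6 mesenchymal rows, while the row of Cdh1 stays between −0.13 and 0.07.

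Markers of fibroblasts and of endothelium were also higher in Lef1KI libraries. Of 16 fibroblast markers listed, 15 were in the table and 13 were called higher in Lef1KI (median log2 difference 2.15), with the smallest adjusted p for the collagen genes Col6a3 (2.88), Col1a1 (2.71) and Col5a1 (2.31) and the matrix gene Dpt (2.50). Their summed level was 3979, 2096, 4461, 3567 and 1627 TPM in Lef1KI A to E, and 429, 859, 1127 and 655 TPM in WT A, B, D and E. All 15 averaged at least 1 TPM in each group and none was at 0 throughout a group. Of the 15, 14 had a positive difference and 1 a negative one (−0.405, not called). Zeb1 stood in the same order as this sum in 15 of the 16 within-group library pairs, Cdh11 in 14, Twist1 and Zeb2 in 11, Vim in 10 and Twist2 in 6. Without Mgp, the most abundant marker, the sum ran from 459 to 1301 TPM in Lef1KI and from 133 to 229 TPM in WT, and these counts were 15, 12, 9, 13, 10 and 8 for Zeb1, Cdh11, Twist1, Zeb2, Vim and Twist2.

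Of 15 endothelial markers 10 were in the table, and 7 were called higher (median log2 difference 1.78), of which Ramp2 (2.10), Plvap (1.33), Eng (1.77) and Kdr (1.79) had the smallest adjusted p. The 1 with a negative difference, Esam, averaged 2.15 TPM in Lef1KI and 5.24 TPM in WT (log2 difference −0.74) and was not called. Of the 10, 9 averaged at least 1 TPM in Lef1KI and 4 in WT. At least Cdh5, Kdr and Plvap met the 3 SD limit of the table only in Lef1KI, so the count leans on genes high there. They summed to 46.9 to 134 TPM in Lef1KI and 21.9 to 33.3 TPM in WT, without overlap. Vim stood in the order of this sum in 13 of the 16 within-group pairs, Twist2 in 9, Cdh11, Zeb1 and Zeb2 in 8 each and Twist1 in 6. Of 10 leukocyte markers 5 were in the table and 2 were called higher, Lyz2 (log2 difference 1.95) and Coro1a (0.45, lost under median centring, without WT B at 0.45 and without WT E at 0.39). Of the 5, 3 had a positive and 2 a negative difference (lowest −1.18), with 0 called lower and 4 at an unadjusted p under 0.05. The 5 summed to 244, 83.6, 60.8, 58.6 and 65.3 TPM in Lef1KI A to E, and 111, 176, 179 and 260 TPM in WT A, B, D and E. Only Lef1KI A reached the range of WT. The pan-leukocyte gene Ptprc was not among the genes of the table. For Schwann and neural crest cells and for chondrocytes 3 of 6 and 2 of 6 markers were in the table and 0 were called, with 1 and 0 at an unadjusted p under 0.05. The part of any other cell type in the values of the 8 genes was not tested.

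For the marker lists above and the gene lists below, the background was 6.73% of all genes called higher and 1.24% called lower. At least Lyz2, Coro1a, Postn, Msc, Pcdh9 and Ctnnd2, all called higher, also met the 3 SD limit of the table only in Lef1KI. The rises counted in their lists thus lean on genes high there. The median difference of all genes was 0.141, and no list was tested against the others. Of 18 other transcription factors of the transition 17 were measured, and 2 rose and 1 fell, with a median log2 difference of 0.20. Snai1, the SNAIL factor that represses Cdh1, had 2.23, 1.88, 5.46, 2.92 and 1.90 TPM in Lef1KI A to E, and 0.36, 1.08, 0.71 and 0.90 TPM in WT A, B, D and E. Its log2 difference was 1.083 (SE 0.24, limma adjusted p 0.0189), and the call was lost without WT A (0.96) or WT D (1.07). Prrx1, a homeobox factor of mesenchyme, averaged 19.5 ± 6.60 TPM in Lef1KI and 6.75 ± 1.67 TPM in WT (SD, log2 difference 1.37, SE 0.25, limma adjusted p 0.00753). Foxq1, a forkhead factor, fell to 5.14 ± 1.97 TPM in Lef1KI, against 14.6 ± 5.52 TPM in WT, a log2 difference of −1.32 (SE 0.32, limma adjusted p 0.0307) that passed in 3 of 9 refits (−1.63 to −1.16), with overlapping groups.

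Snai2, the SNAIL factor of basal epithelial cells, was far more abundant than any TWIST or ZEB gene and did not pass the test. It had 80.2, 85.9, 63.8, 62.7 and 91.4 TPM in Lef1KI A to E, and 119, 111, 80.0 and 89.1 TPM in WT A, B, D and E, with overlapping groups (log2 difference −0.37, SE 0.16, limma adjusted p 0.188).

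Of 13 relatives and partners of the TWIST proteins 9 were measured, and 3 rose and 1 fell (median log2 difference 0.11). Id3, an inhibitor of basic helix-loop-helix factors, averaged 83.6 ± 16.2 TPM in Lef1KI, against 40.6 ± 15.4 TPM in WT (SD, log2 difference 1.07, SE 0.22, limma adjusted p 0.0128). Tcf4, an E-protein that pairs with TWIST, rose by 0.63 (SE 0.16, limma adjusted p 0.0384), passing in 3 of 9 refits (0.54 to 0.73) and after neither rescaling. Msc rose by 0.67 (SE 0.12, limma adjusted p 0.00695) but averaged under 1 TPM in each group, was listed at 0 in WT B, D and E, and did not pass under median centring. Scx, a factor of tendon, averaged 0.854 ± 0.126 TPM in Lef1KI, against 2.84 ± 1.49 TPM in WT (SD, log2 difference −0.98, SE 0.21, limma adjusted p 0.0178), a call lost without WT B (−0.95).

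Of 20 measured effectors of the mesenchymal state 9 rose and 1 fell (median log2 difference 0.84, against 0.141 over all genes). The follistatin-like gene Fstl1 averaged 30.4 ± 9.47 TPM in Lef1KI, against 7.51 ± 1.26 TPM in WT (SD, log2 difference 1.85, SE 0.22, limma adjusted p 0.000911). The matrix gene Postn, which encodes periostin, rose by 1.96 (SE 0.26, limma adjusted p 0.00145), Sparc by 0.93 (SE 0.12, 0.00161) and the gelatinase gene Mmp2 by 2.25 (SE 0.30, 0.00168). Fn1, the fibronectin gene, averaged 136 ± 44.6 TPM in Lef1KI and 70.1 ± 24.2 TPM in WT (SD) with overlapping groups, and its call (log2 difference 0.96, SE 0.25, limma adjusted p 0.0414) stood in 3 of 9 refits (0.78 to 1.16) and after neither rescaling. Tgfbi, a matrix gene named for its induction by TGF-beta, was the 1 that fell (−1.49, SE 0.39, limma adjusted p 0.0399, passing in 4 of 9 refits, −1.74 to −1.22). Beside this, the fibroblast markers had a median difference of 2.15. Among 6 measured relatives and linkers of vimentin 0 rose, and Synm, whose intermediate filament protein synemin assembles with vimentin, fell to 1.23 ± 0.423 TPM in Lef1KI against 4.02 ± 1.16 TPM in WT (SD, log2 difference −1.17, SE 0.20, limma adjusted p 0.00477).

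**Figure D5:**
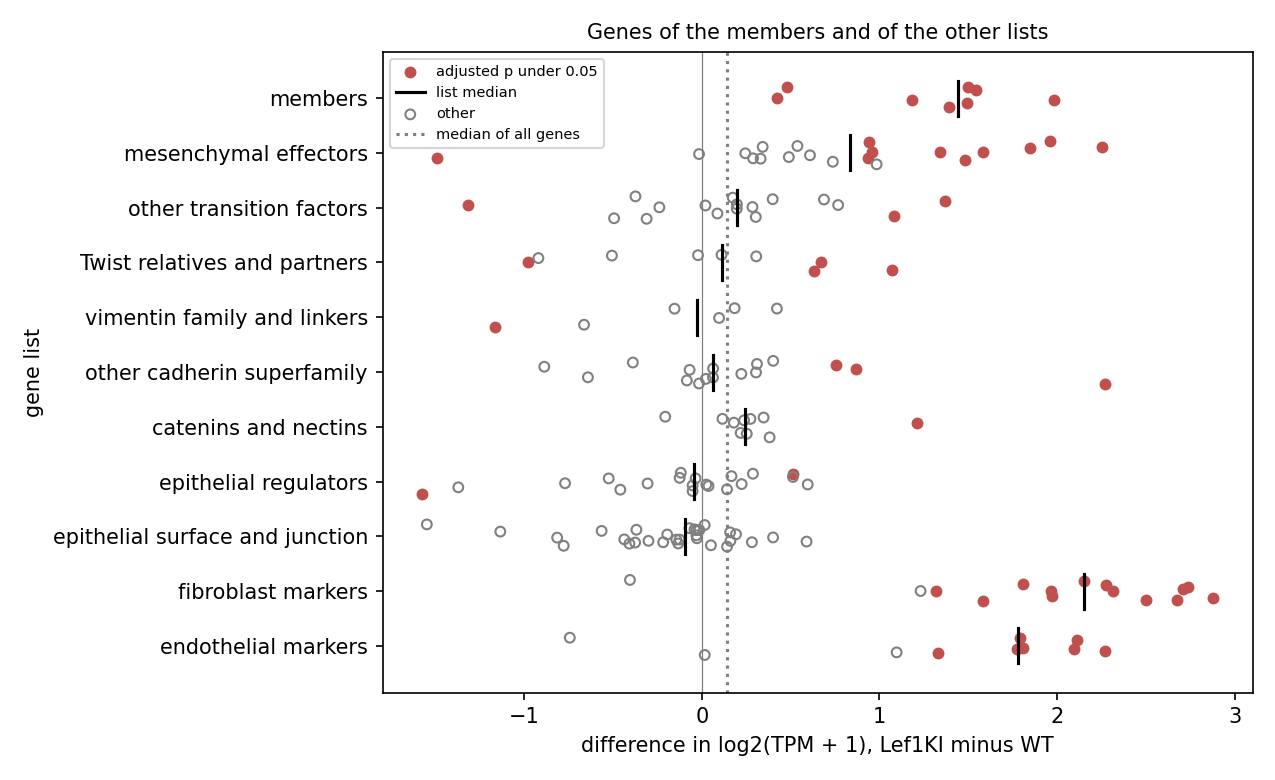
Difference in log2(TPM + 1), Lef1KI minus WT, of each measured gene (points, filled at a limma adjusted p under 0.05) in the 8 members and 10 other gene lists (rows), with a bar at each list's median and a dotted line at the median of all genes, 0.141. Effectors and fibroblast and endothelial markers lie mostly to the right, while epithelial regulators and junction genes centre near 0.

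Of 16 measured genes of the cadherin superfamily outside the set 3 rose and 0 fell (median log2 difference 0.06). Cdh5, the cadherin of endothelial junctions, had 3.57, 4.15, 12.8, 16.4 and 8.15 TPM in Lef1KI A to E, and 1.70, 0.68, 0.91 and 0.25 TPM in WT A, B, D and E (log2 difference 2.27, SE 0.40, limma adjusted p 0.00604). Its highest value was in Lef1KI D, unlike the 6 mesenchymal members. Cdh2, the N-cadherin gene often gained in a transition, was low at 0.780 ± 0.2999 TPM in Lef1KI and 0.708 ± 0.336 TPM in WT (SD, log2 difference 0.06, SE 0.16, limma adjusted p 0.8293). The protocadherin genes Pcdh17 (0.75, SE 0.18, limma adjusted p 0.0304) and Pcdh9 (0.87, SE 0.23, limma adjusted p 0.044) rose, passing in 4 and 2 of 9 refits (0.58 to 0.84 and 0.70 to 1.09). Pcdh17 did not pass under median centring, nor Pcdh9 after either rescaling.

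Catenins tie cadherins to actin. Of 10 measured catenin and nectin-related genes 1 rose, Ctnnd2, at 1.72 ± 0.500 TPM in Lef1KI and 0.165 ± 0.126 TPM in WT (SD, log2 difference 1.21, SE 0.14, limma adjusted p 0.000897). The p120-catenin gene Ctnnd1, whose product stabilises cadherins at the membrane, averaged 114 ± 6.53 TPM in Lef1KI, against 89.8 ± 13.03 TPM in WT (SD, log2 difference 0.35, SE 0.11, limma adjusted p 0.095). Ctnnb1, Ctnna1 and Jup, for beta-catenin, alpha-catenin and plakoglobin, had log2 differences of 0.27, 0.18 and 0.22 (SE 0.13, 0.16 and 0.10) that were smaller still.

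Of 30 measured epithelial surface and junction genes 0 passed limma's threshold in either direction, with 5 at an unadjusted p under 0.05 and a median log2 difference of −0.10. Epcam averaged 53.1 ± 20.2 TPM in Lef1KI, against 50.9 ± 6.24 TPM in WT (SD). Of 20 epithelial regulators 1 rose and 1 fell (median −0.04). Tfap2a rose by 0.51 (SE 0.11, limma adjusted p 0.0191), a call lost under both rescalings and without Lef1KI B (0.48), WT B (0.49) or WT D (0.50). Elf3, an ETS factor of epithelia, fell to 29.3 ± 11.6 TPM in Lef1KI, against 94.6 ± 51.5 TPM in WT (SD, log2 difference −1.58, SE 0.37, limma adjusted p 0.0254, passing in 4 of 9 refits, −1.80 to −1.28). The factors known to hold the epithelial state against ZEB and SNAIL did not pass. Ovol1 had a log2 difference of 0.29 (SE 0.21), Ovol2 of −0.46 (SE 0.18), Grhl2 of 0.04 (SE 0.18), and the splicing regulators Esrp1 and Esrp2 of 0.14 and 0.22 (SE 0.16 each). A difference that missed the threshold at this spread does not show equal levels.

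The genes whose profiles over the 9 libraries were nearest to those of the members were found by the root mean square difference of log2(TPM + 1) profiles, each centred on its own mean. Cdh1 was nearest to Rpn2 (0.070) and Gfer (0.074), and Cdh3 to Rrbp1 (0.092) and Cd44 (0.107). Bmper was the nearest to both Cdh11 (0.079) and Twist1 (0.186), followed by Cacna1c (0.143) for Cdh11 and by Cdh11 itself (0.215) for Twist1. Vim was nearest to Fetub (0.169) and Thbs2 (0.203), Twist2 to Chl1 (0.290) and Slc2a3 (0.291), Zeb1 to Prr16 (0.095) and C1qtnf1 (0.096), and Zeb2 to Medag (0.109) and Ccbe1 (0.135). These distances describe likeness only, and rest largely on the shared gap between the groups.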

How the data were processed

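The deposited table holds log2(TPM + 1) values in mouse gene rows. RSEM and mm10 are named as the authors' tool and genome build, per the submitters' processing notes. The sources used here name no version, aligner or annotation. Libraries were stranded mRNA preparations, per the labels' protocols. Genes had been kept where the mean was at least 3 SD in a group (lowest value found 3.002), which favours genes of small spread. A gene could thus be kept only through the group where it is high. Depth is unknown, since TPM keeps no counts, so the spread between libraries is the error. Each library summed to 99.6 to 99.84% of the full TPM total, its median log2 value lay between 3.58 and 3.97, and no 2 libraries held equal values for more than 92 genes. Columns carry letters that no label explains and were assigned to groups by name.

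Groups were compared with limma 3.58.1 (R 4.3.3) with an intensity trend, Benjamini-Hochberg adjustment over 13336 genes and a threshold of 0.05. WT means were subtracted from Lef1KI means of log2(TPM + 1), a scale that understates changes of low genes. The fit was tested on simulated data. Alternatives were median centring, trimmed-mean scaling, a pseudocount of 0.1, a minimum mean of 1 TPM, no trend, leaving out each library and, chosen after seeing the data, adding the Cdh11 copies and blocking by column letter. The members and gene lists were chosen with earlier results of these data known. All members are named, with up to 4 called genes per list and direction by smallest adjusted p, 20 further genes fixed by name and the 2 nearest profiles per member. The Cdh11 copies were named for their shared sequence and the promoter letters CCAAT and TATAA were chosen afterwards. Positions and transcripts are from GENCODE M21 (13280 of 13336 gene IDs matched), upstream windows from RefSeq. The only error behind a p-value is the spread between pooled cultures.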

Additional observations from a re-analysis of the deposited data

Results flagged for a closer look

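Cdh11 in WT was set apart by 1 library. WT A had 1.14 TPM, against 2.0, 2.0 and 1.90 TPM in WT B, D and E, so that its gap to the nearest other library was 0.9 of the range of the group on the log2(TPM + 1) scale. WT A was also the lowest WT library in the summed level of the 6 listed copies of Cdh11, at 237 TPM, against 379 to 415 TPM in the other WT libraries. Without WT A the log2 difference of Cdh11 was 1.27. This was the 1 such gap among 36 groups of values examined, where chance gives about 1 in 20.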

How the results depend on the processing

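The columns carry letters, 4 of them in both groups, and not the replicate numbers of the labels, and no label says that a letter marks a pair. With the letter taken as a replicate block, an alternative chosen after seeing the data, 437 genes rose and 47 fell, and the members' differences ranged from 0.43 (Cdh1) to 1.83 (Twist2). Letter C occurs in Lef1KI only, so this block takes up Lef1KI C, and the members' differences equal those without that library. Only 3 residual degrees of freedom remained, so the lower counts cannot be read as an effect of pairing. Deviations from the group means correlated between libraries of the same letter, across genes, at −0.259 (A), 0.02 (B), 0.258 (D) and −0.148 (E), and 1 of 4 WT libraries correlated best with its own letter. Of 641 recomputed values, 568 stayed within the limits set (a count within 1.5 times, a value within 1 SD of libraries). The 8 members called became between 6 and 8 without 1 library, and 6 with either scaling. Over all genes, 898 rises and 165 falls (84.5% higher) became 605 and 332 with median centring (64.6% higher) and 683 and 291 with trimmed-mean scaling (70.1%), and ran from 565 to 1416 rises and from 63 to 270 falls without 1 library. The median difference of all genes was 0.141 as deposited, −0.018 and −0.00015 with these scalings. Median centring left 1 rise among other cadherins (with 1 fall), 1 among TWIST relatives (with 3 falls), 0 among epithelial regulators (with 4 falls), 1 among leukocyte markers, and 2 falls among junction genes. Trimmed-mean scaling gave 0 rises and 3 falls among epithelial regulators, 1 fall among other cadherins and 1 among junction genes. The minimum of 1 TPM left 1 leukocyte rise. The difference of Cdh1 was 0.27 and 0.25 with the scalings. With a pseudocount of 0.1 the differences of Cdh11, Twist1, Twist2 and Zeb1 were 1.78, 1.88, 2.85 and 2.17. Ratios of TPM + 1 to Cdh1 gave 1.56 for Twist2 and 1.12 for Zeb1. Cdh11 with its copies, which make up nearly all of that sum, gave −0.99. The cause was not tested. Without 1 library, rises ranged from 1 to 3 for other cadherins, 1 to 2 for other transition factors, 0 to 1 for epithelial regulators, 1 to 3 for leukocyte and 0 to 1 for basal markers. Falls ranged from 0 to 1 for other cadherins, transition factors, effectors and leukocyte, neural crest and basal markers, 0 to 2 for TWIST relatives and 0 to 3 for epithelial regulators and junction genes. The log2 difference of the ratio of Cdh3 to Cdh1 ranged from −0.04 to 0.11.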
